A study of Mus musculus with 4 samples.

Results

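The cytokine gene Mif, its homolog Ddt and the MIF receptor genes Cd44 and Cxcr4 were followed across and within the libraries of a single-cell RNA-sequencing study of bone marrow (BM) macrophages. The members were taken by gene symbol, 1 row each of the 31053 genes in the deposited count tables, and all 4 were among the 13869 genes with enough counts for a test. The study asked how BM macrophages change when they engulf apoptotic prostate cancer cells in the process called efferocytosis, with MIF among the cytokines it followed.

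BM macrophages were grown with M-CSF from the marrow of male C57BL/6J mice of 4 to 6 weeks. Apoptotic RM1 cells, a prostate cancer line of the same strain, were labeled with the dye CFSE and co-cultured with the macrophages for 16 to 18 h. Efferocytic cells were those sorted for CFSE and for the macrophage surface protein F4/80. The non-efferocytic group was sorted for F4/80 only. The sources used here leave unclear whether these cells came from the same co-cultures or from macrophages kept without RM1 cells. Each of 2 experiments gave 1 library per group, 4 libraries in all.

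MIF is a small cytokine that macrophages hold in the cytoplasm and release on stimulation, and DDT (also named MIF-2) is its closest relative in mammals. MIF binds CD74, the invariant chain of MHC class II, which signals with CD44 as partner, and it also binds the chemokine receptors CXCR2, CXCR4 and CXCR7 (gene Ackr3). Mif and Cxcr4 are both known targets of the hypoxia-inducible factors (HIF), which bind the core sequence ACGTG or, less often, GCGTG.

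In the GENCODE vM21 annotation of GRCm38, Mif lies on the minus strand of chromosome 10 at 75859353 to 75860240, with 3 exons. Ddt lies on the same strand of chromosome 10 at 75771230 to 75773414, with 2 to 3 exons. The 85938 bases between them hold 4 protein-coding genes. Cd44 lies on the minus strand of chromosome 2 at 102811141 to 102901665, with 8 coding transcripts of 9 to 19 exons, and the 3′ counting used here does not separate its splice variants. Cxcr4 lies on the minus strand of chromosome 1 at 128588199 to 128592293, with 2 exons. Of the genes that overlap a member, Gm20441 (with Ddt, same strand) held 2 UMIs in all libraries and Gm23731 (with Cd44, opposite strand) held 0. GENCODE also lists 2 genes named Mif-ps, for Mif pseudogenes, which are not among the genes counted.

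The 250 bases before the RefSeq start site of Mif (GRCm38.p6, minus strand, chr10:75860278-75860527) are shown because Mif carried the main difference between the groups. Capitals mark the palindrome TGACGTCA, the full cAMP response element, which starts 24 bases before the start site.

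Mif promoter: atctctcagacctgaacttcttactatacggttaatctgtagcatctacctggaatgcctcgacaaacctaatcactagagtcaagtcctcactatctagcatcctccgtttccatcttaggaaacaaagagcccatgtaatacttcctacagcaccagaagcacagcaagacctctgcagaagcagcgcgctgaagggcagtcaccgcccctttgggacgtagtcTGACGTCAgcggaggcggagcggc

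The RefSeq promoter windows (250 bases before to 50 after each start) were searched on both strands for ACGTG, for the other HIF core GCGTG and for TGACGTCA, and each match of a HIF core in the 4 windows is shown in capitals with 10 bases on either side. In the Mif window the only core stands after the RefSeq start site (75860277), on the strand opposite to the gene, so that its reverse complement is what is printed. By the GENCODE coordinates above, in which Mif starts at 75860240 on the minus strand, this core lies before the start. In the Ddt window the match is part of a palindrome and gives overlapping hits on both strands, of which the one on the gene's strand is shown.

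Mif core at base 30 after the start (chr10:75860234-75860258): tgagctgggtCACGTagctcaggtc

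Ddt core 168 bases before the start (chr10:75773528-75773552): gagccggcacACGTGacagcggaag

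Cd44 core 29 bases before the start (chr2:102901680-102901704): gccctggagaACGTGggcgcacggg

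Cxcr4 core 39 bases before the start (chr1:128592324-128592348): cgccccgggaGCGTGtttttataaa

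Among 32851 windows of this length, ACGTG occurred in 19.6% and GCGTG in 32.4%, so that a match of either is common, while TGACGTCA occurred in 1.79%. None of these matches was measured for binding here.

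The thresholds of the study's methods, applied here to all deposited barcodes and not to cells first called by Cell Ranger (at least 200 genes, at least 1000 unique molecular identifiers (UMIs) and at most 10% of UMIs from mt- genes) left 8280 cells of the non-efferocytic library and 6695 of the efferocytic one in Experiment 1, and 13411 and 8408 in Experiment 2. These cell sets are therefore larger than the study's. With a minimum of UMIs set after Cell Ranger's rule as well, 7549 and 6158 cells remained in Experiment 1 and 10615 and 7921 in Experiment 2, and the log2 fold changes of Mif, Cd44 and Cxcr4 were then 1.47, 0.37 and -0.40. A UMI marks 1 captured mRNA molecule. Median UMIs per cell were 11146 and 9600 in the non-efferocytic libraries and 17171 and 17475.5 in the efferocytic ones, so that efferocytic cells were the deeper ones in both experiments. Summed over the cells, the libraries held 101216659 to 155224183 UMIs. The 10 macrophage markers were present in every library. They summed to 41255 and 35502 counts per 1000000 UMIs of cells (CPM) in the non-efferocytic libraries and to 32999 and 25057 CPM in the efferocytic ones. The 10 neutrophil-lineage markers summed to 3074 and 3383 CPM in the non-efferocytic libraries and to 961 and 719 CPM in the efferocytic ones, and the 8 fibroblast markers to 156 and 132 CPM against 48.4 and 56.2 CPM. Libraries shared 14 to 23 barcodes in pairs, except for 118 in the pair of Experiment 2, which were 0.88% and 1.4% of its cells.

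Mif was higher in efferocytic BM macrophages. Its level was 170 CPM (17176 UMIs) and 174 CPM (24086 UMIs) in the non-efferocytic libraries of Experiments 1 and 2, and 437.5 CPM (54687 UMIs) and 453 CPM (70380 UMIs) in the efferocytic ones. The groups did not overlap, and the ratio within an experiment was 2.58 and 2.60. In means, Mif rose from 172 CPM ± 3.11 to 445 CPM ± 11.2 (SD, n = 2 libraries each). The log2 fold change was 1.48 (SE 0.10) with an adjusted p of 7.15e-05, by edgeR's quasi-likelihood test on UMIs summed per library, with the experiment as a block and Benjamini-Hochberg adjustment over all 13869 genes.

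Ddt did not pass the test. It stood at 87.2 and 95.5 CPM in the non-efferocytic libraries and at 81.2 and 76.9 CPM in the efferocytic ones, with a log2 fold change of -0.10 (SE 0.09) and an adjusted edgeR p of 0.424. The efferocytic values lay below the non-efferocytic ones in both experiments.

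Cd44, a surface receptor for hyaluronan and osteopontin, was at 138 and 140 CPM in the non-efferocytic libraries and at 147 and 193 CPM in the efferocytic ones. The efferocytic libraries were the higher ones, with a ratio of 1.06 in Experiment 1 and 1.38 in Experiment 2. The log2 fold change of 0.38 (SE 0.10) passed the edgeR test, with an adjusted p of 0.0196.

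Cxcr4, the receptor of CXCL12 that also binds MIF, was at 82.4 and 89.9 CPM in the non-efferocytic libraries and at 68.6 and 53.8 CPM in the efferocytic ones. The efferocytic libraries were the lower ones, with a ratio of 0.833 in Experiment 1 and 0.598 in Experiment 2. The log2 fold change was -0.40 (SE 0.13), with an adjusted edgeR p of 0.0383.

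Of the 4 members, 2 were called higher, 1 lower and 1 neither. Across all genes tested, 38.9% were called, 19.9% as higher and 19% as lower, so that the number of members called carries little by itself.

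**Figure D1:**
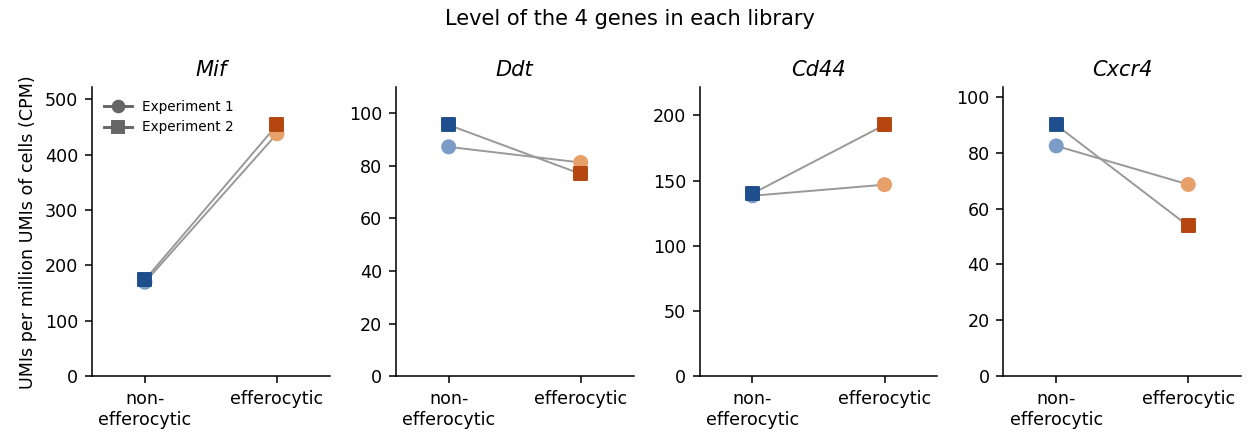
Level of Mif, Ddt, Cd44 and Cxcr4 in each library, in counts per 1000000 UMIs of cells (CPM) on linear axes that start at 0. Each point is 1 library (circles, Experiment 1, and squares, Experiment 2), and a line joins the libraries of an experiment; Mif rises to 437.5 and 453 CPM in both experiments, while the lines of Cd44 and Cxcr4 are steeper in Experiment 2.

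The calls of Cd44 and Cxcr4 were weaker than that of Mif. Without the block their adjusted p-values were 0.0912 and 0.138, while Mif kept 0.0113. Within macrophage-like cells alone the log2 fold change of Mif was 1.43 (adjusted edgeR p 0.00663). Those of Cd44 and Cxcr4 were 0.23 (adjusted edgeR p 0.105) and -0.43 (adjusted edgeR p 0.0943). This set kept 6426 of 13411 non-efferocytic and 5597 of 8408 efferocytic cells of Experiment 2. It left out clusters there that were also named macrophage-like, led by Cd74 (4118 cells) and by Cdkn1c (2614 cells). In Experiment 1 the set left out a macrophage-like cluster led by Arg1 (405 efferocytic and 2 non-efferocytic cells). The cluster led by Cdkn1c was kept in that experiment, so the set was not the same in both. With the efferocytic library of Experiment 2 left out, Cd44 fell to 0.23 and Cxcr4 to -0.18. Mif was at 1.47 to 1.51 with each library left out in turn. These fits hold 1 library in a group, so that no call is read from them for any member. With both other-cell and unnamed clusters removed, every cluster named macrophage-like stayed, an alternative chosen after seeing the data. The log2 fold changes were then 1.48, 0.34 and -0.44 and all 3 passed the edgeR test. Removal of the barcodes shared within an experiment, chosen likewise, gave 1.48, 0.38 and -0.40.

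CPM is a gene's share of a cell's RNA and not its amount. Scaled to UMIs per cell instead, the median over all genes stood at 0.60 on the log2 scale, and 92.2% of the calls were then higher, against 51.2% in the fit above and 33.3% with library totals (median -0.12). On that scale Mif stood at 2.10, which is 1.5 above the median of all genes, Cd44 0.40 above it, Ddt 0.08 below it (-0.08) and Cxcr4 0.38 below it (-0.38). Counted per cell, the mean of Cxcr4 was 1.01 and 0.928 UMIs in non-efferocytic cells and 1.28 and 0.993 UMIs in efferocytic cells. The direction of Cxcr4 and Ddt therefore depended on whether levels were taken per UMI or per cell, whereas Mif was higher on both scales, with means of 2.07 and 1.80 UMIs against 8.17 and 8.37.

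To compare cells at equal depth, each cell was thinned at random to 5000 UMIs, which left out 1099 and 3404 non-efferocytic and 544 and 505 efferocytic cells with fewer. At this depth Mif had at least 1 UMI in 50.6% (95% exact interval 49.4 to 51.7) and 51.7% (50.7 to 52.6) of non-efferocytic cells and in 81.6% (80.7 to 82.6) and 83.6% (82.8 to 84.4) of efferocytic cells. These intervals cover counting error only. Not thinned, the shares were 71.5% and 64.7% against 94.3% and 95.3%.

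The whole distribution of Mif was shifted, and not a small group of cells alone. The mean was 0.785 and 0.802 UMIs per thinned cell in the non-efferocytic libraries and 2.15 and 2.24 in the efferocytic ones, and the median cell went from 1 to 2 UMIs. Taking 1 cell of each group at random, with ties shared equally, the efferocytic cell had more Mif in 73.8% of pairs in Experiment 1 and in 75% in Experiment 2. Of the efferocytic cells, 33.4% and 35.0% lay above the 90th percentile of the non-efferocytic cells of their experiment, against 5.82% and 6.14% of the latter cells themselves. At the same time 44.5% and 41.7% of efferocytic cells held no more than the median non-efferocytic cell, against 81.6% and 81.4% of the non-efferocytic cells themselves, since many cells tie at 0 and 1 UMI. The groups thus overlapped cell by cell.

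Efferocytic cells also had a longer upper tail of Mif. The 99th percentile was 4 UMIs in both non-efferocytic libraries and 9 in both efferocytic ones. Cells with 10 or more Mif UMIs made up 0.0418% and 0.05% of non-efferocytic and 0.98% and 0.86% of efferocytic cells. The ratio of variance to mean, which is 1 for pure counting noise, was 1.37 and 1.35 in non-efferocytic and 1.82 and 1.78 in efferocytic cells. Since this ratio grows with the mean, the spread beyond counting noise was also taken relative to the mean, and it was then 0.686 and 0.662 in non-efferocytic and 0.618 and 0.590 in efferocytic cells.

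Ddt was the member nearest to counting noise, with a ratio of variance to mean of 1.03 to 1.06 in the 4 libraries and at least 1 UMI in 33.9% and 36.4% of non-efferocytic and 31.6% and 29.95% of efferocytic thinned cells. Cd44 had a UMI in 46.4% and 47.4% of non-efferocytic and in 50.2% and 58.5% of efferocytic cells, with a ratio of 1.25 to 1.38. Cxcr4 had a UMI in 31.6% and 34.4% against 28.3% and 22.6% of cells, with a ratio of 1.23 to 1.32. The efferocytic cell of a pair drawn as above had more Cd44 in 52.0% and 57.2% of pairs and more Cxcr4 in 48.1% and 43.7%. The receptor differences were thus small beside the spread between cells, and larger in Experiment 2 than in Experiment 1; with 2 libraries a group the difference between experiments was not tested.

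**Figure D2:**
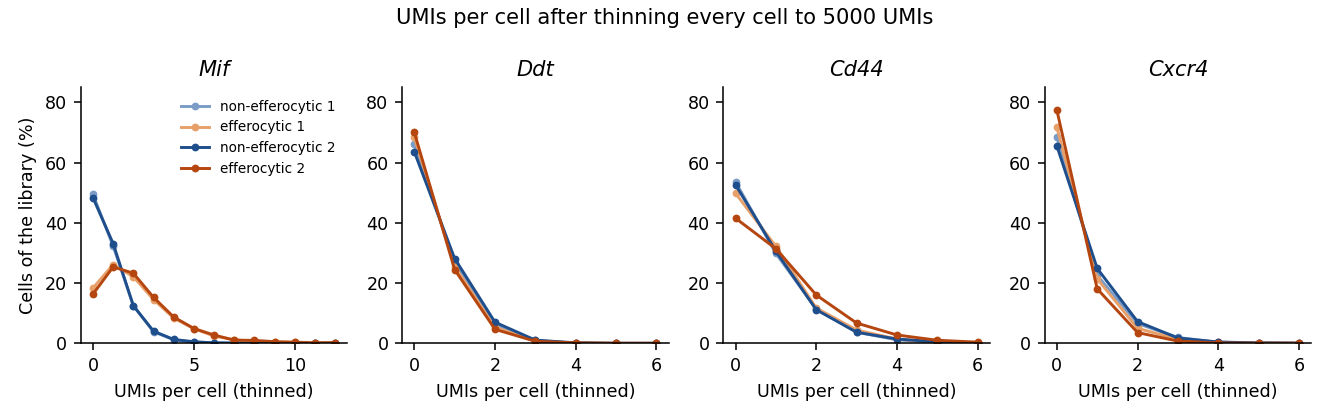
Share of cells (%) by their number of UMIs of Mif, Ddt, Cd44 and Cxcr4 after thinning every cell to 5000 UMIs, 1 line per library. For Mif the share of cells at 0 is 49.4% and 48.3% in the non-efferocytic libraries and 18.4% and 16.4% in the efferocytic ones. The lines of the other members lie closer together. In Experiment 2 the share at 0 is 52.6% in non-efferocytic against 41.5% in efferocytic cells for Cd44, and 65.6% against 77.4% for Cxcr4.

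RNA outside cells bears on these shares. In the droplets with 1 to 100 UMIs, which hold free RNA, Mif was at 279 CPM in both non-efferocytic libraries and at 466 and 487 CPM in the efferocytic ones, above its level in the cells of the same library in each case. Ddt was at 86.3 to 93.1 CPM in the free RNA, Cd44 at 86.1 to 168 CPM and Cxcr4 at 52.1 to 77.1 CPM. With 10% of the UMIs of each library removed in the proportions of the free RNA, Mif kept a log2 fold change of 1.55 (adjusted edgeR p 0.0192), while Cd44 (0.36, p 0.0961) and Cxcr4 (-0.43, p 0.141) no longer passed.

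For Cxcr4 the shares in fibroblast-like cells of the same libraries are given beside those in macrophage-like cells. They had a Cxcr4 UMI in 3.33% (of 30 thinned cells), 7.69% (of 13), 7.32% (of 41) and 0% (of 24), in the order non-efferocytic and efferocytic of Experiment 1 and then of Experiment 2, against 31.4%, 28.2%, 34.3% and 22.6% of the cells of all clusters named macrophage-like. The 0 of 24 allows a share of up to 12.5%. Both cell types were at the same depth by thinning, which need not give them the same share of free RNA. In Experiment 1 the fibroblast-like cells had medians of 43880 and 43970 UMIs before thinning, against 11146 and 17171 UMIs over all cells. The comparison therefore cannot tell how much free RNA added to these shares. No such comparison was made for the other members.

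The members were detected in the same cells about as often as chance pairing of their shares gives. Mif and Cd44 were both detected in 23.8% of non-efferocytic and 41.3% of efferocytic cells in Experiment 1, where the product of their shares was 23.5% and 41.0%. In Experiment 2 they were both detected in 24.5% and 48.8%, where the product was 24.5% and 48.9%. Over the 6 pairs of members and the 4 libraries, the ratio of observed to expected was 0.946 to 1.05, lowest for Ddt with Cd44 and highest for Cd44 with Cxcr4. Pearson's r of log2(UMIs + 1) between members lay between -0.045 and 0.029, which is too weak to be a finding in sparse counts.

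Cells with Mif but neither Cd44 nor Cxcr4 made up 18.4% and 17.8% of non-efferocytic and 28.9% and 26.9% of efferocytic cells. Cells with no UMI of any member fell from 12.2% and 10.8% to 4.15% and 3.59%, and cells with all 4 were at 2.87% and 2.85% against 3.32% and 3.29%. Mif together with Cd74, the main MIF receptor, was detected in 11.1% and 14.5% of non-efferocytic cells and in 4.26% and 4.23% of efferocytic cells. The free RNA of the efferocytic libraries held Cd74 at 913 and 405 CPM, well above their cells, and its part in these shares, as that of Mif in free RNA, was not tested.

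Cells of each experiment were clustered together, and each cluster with at least 50 cells in both libraries was compared between them. Mif was higher in the efferocytic cells in 8 of 8 such clusters in Experiment 1 (ratio 1.13 to 2.84) and in 8 of 9 in Experiment 2. The exception was a T or NK cell-like cluster of few UMIs, with 326 CPM (exact 95% interval 232 to 446) in 71 non-efferocytic cells and 213 CPM (134 to 323) in 63 efferocytic cells. Clusters were made from the same cells and genes, so these values are a description.

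The cluster that held most non-efferocytic cells of Experiment 1 (4533 of them, with Ier3, Hpgd and Ighm as leading genes) had Mif at 134 CPM, and its 139 efferocytic cells had 227 CPM. The cluster that held most efferocytic cells (3431, led by Cnrip1, Lrrc14b and Tfrc) had 360 CPM, and its 313 non-efferocytic cells had 208 CPM. In Experiment 2 the largest efferocytic cluster (4534 cells, led by Cnrip1, Cd33 and Pf4) had 409 CPM against 221 CPM in its 100 non-efferocytic cells. Efferocytic and non-efferocytic cells mostly fell into different clusters, and Mif differed both between these clusters and within them.

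Among macrophage-like clusters of 50 or more cells in both libraries, Mif was highest in efferocytic cells, and in the non-efferocytic cells of Experiment 2, in a cluster led by Plaur, Prss46, Ero1l, Atf5 and Slpi, with the serine and asparagine synthesis genes Asns and Phgdh also among leading genes in 1 or both experiments. It was at 396 CPM in non-efferocytic and 796 CPM in efferocytic cells of Experiment 1, and at 418 and 791 CPM in those of Experiment 2. A cluster led by Arg1, Ankrd37, Mmp12 and Bnip3, found in Experiment 1 with 405 efferocytic and 2 non-efferocytic cells, had 732 CPM (709 to 755) in the efferocytic cells. Cells of a cluster led by Cdkn1c, Npy and Pdpn had close to the same Mif in both groups, 412 and 466 CPM in Experiment 1 and 408 and 484 CPM in the like-led cluster of Experiment 2. The cycling cells, led by Birc5 and Cenpf, had 166 and 455 CPM in Experiment 1 and 170.5 and 427 CPM in Experiment 2.

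The other members were distributed differently. Fibroblast-like cells, which carried all 8 or 7 of the 8 fibroblast markers, had the highest Mif of any named class. It was at 681 and 775 CPM where not efferocytic and 1459 and 1207 CPM where efferocytic, in only 14 to 116 cells a library. These clusters also carried 10 (Experiment 1) and 6 (Experiment 2) of the 10 macrophage markers. The paper lists the RM1 line itself as fibroblast-like. Whether mixed droplets or RM1 cells had a part in these values was not tested. Cxcr4 was highest in neutrophil-lineage-like cells, with 173 and 140 CPM in the non-efferocytic libraries and 221 and 138 CPM in the efferocytic ones. Within clusters the ratio of efferocytic to non-efferocytic level was 0.57 to 1.88 for Cd44, 0.43 to 1.33 for Cxcr4 and 0.46 to 1.13 for Ddt, on both sides of 1 in each experiment for all 3 genes. The 0.46 was in an unnamed cluster of few UMIs in Experiment 2. Cd44 in Experiment 1 was mostly below 1 in macrophage-like clusters, at 0.752 to 0.961, although its ratio between the libraries was 1.06. It was at 1.16 in the cluster led by Cdkn1c and at 1.32 in an unnamed cluster of few UMIs. Ddt in Experiment 2 was above 1 only at 1.01, in a cluster with 80 efferocytic cells.

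**Figure D3:**
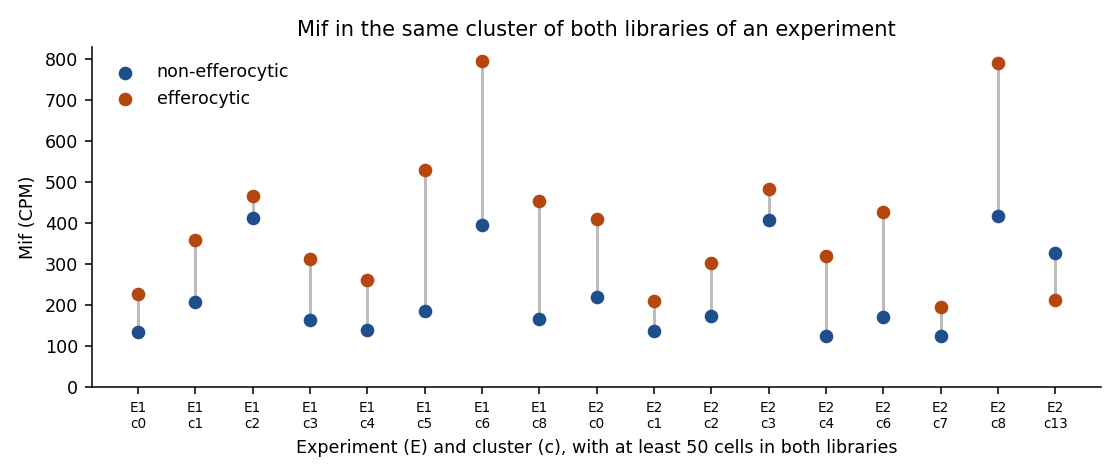
Mif level (CPM, linear axis from 0) of the non-efferocytic and efferocytic cells in each cluster with at least 50 cells in both libraries of an experiment (E, experiment; c, cluster number). The efferocytic point is the higher one in 16 of 17 clusters, and cluster 6 of Experiment 1 and cluster 8 of Experiment 2 reach 796 and 791 CPM. Cluster 5 of Experiment 1 and cluster 7 of Experiment 2 are unnamed clusters of few UMIs.

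Genes that varied with Mif from cell to cell within a library were then listed, for the 4692 genes with a mean of at least 0.1 UMIs per thinned cell in every library. Values are Pearson's r of log2(UMIs + 1) across the 6151 to 10007 thinned cells of a library, and genes are ordered by the mean r over the 4 libraries. Cells of a library share its depth and free RNA, so r is a description and carries no p.

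The 10 genes most like Mif were Gapdh, Ldha, Eno1, Aldoa, Cstb, Tpi1, Plin2, Pgam1, Pkm and Lgals3, with a mean r of 0.175 down to 0.134. Mif, Gapdh and Ldha have near-identical pseudogene copies, so that their counts are uncertain where reads could be split. Of the 10, 7 encode glycolytic enzymes, out of 12 genes of the 21-gene glycolysis list among the 4692. Gapdh, a central enzyme of glycolysis, had an r of 0.108 and 0.103 in the non-efferocytic libraries and 0.278 and 0.212 in the efferocytic ones. Ldha, which turns pyruvate into lactate, had 0.0853 and 0.113 against 0.266 and 0.221. Aldoa, which splits fructose bisphosphate, had 0.0692 and 0.0845 against 0.258 and 0.244. For these 3 enzymes every efferocytic library stood above both non-efferocytic ones, and how many of all 4692 genes did so was not counted. With both genes thinned to their lowest library mean, Ldha and Aldoa still did so. Gapdh then did not, with 0.154 and 0.107 in efferocytic against 0.108 and 0.101 in non-efferocytic libraries.

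The 3 others among the 10 were Cstb, an inhibitor of cathepsins, Plin2, which coats lipid droplets, and Lgals3, galectin-3. Cstb had an r of 0.119 and 0.161 in non-efferocytic and 0.180 and 0.150 in efferocytic libraries, and Plin2 had 0.124 and 0.148 against 0.155 and 0.142, so that for both genes the groups overlapped. All 10 genes were also called higher in efferocytic cells as library sums, with log2 fold changes from 0.60 (Aldoa) to 1.39 (Plin2). Over all genes tested, 19.9% were called higher.

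At the other end stood Selenop, Apoe, Lyz2, Itm2b and Csf1r, with a mean r of -0.169 to -0.134. Selenop encodes a secreted selenium carrier, Apoe an apolipoprotein, Lyz2 lysozyme, and Csf1r the receptor of M-CSF. All 5 had a negative r in each of the 4 libraries. Of these, 4 were called lower in efferocytic cells as sums, where 19% of all genes were, with Selenop at -1.20 and Csf1r at -1.15. Lyz2 (-0.33) did not pass the test (adjusted edgeR p 0.298) and was at 0.29 at UMIs per cell. On that scale Selenop (-0.58) and Csf1r (-0.53) were still called lower. Apoe (-0.12) and Itm2b (-0.009) were not.

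Glycolysis genes were more frequent among the genes most like Mif in the efferocytic libraries. Within each efferocytic library, 8 of the 10 genes with the highest r belonged to the glycolysis list, and within each non-efferocytic library 1 did. The median r of the 12 glycolysis genes was 0.079 and 0.070 in non-efferocytic and 0.204 and 0.179 in efferocytic libraries, where the median over all 4692 genes was within 0.0052 of 0. Pgk1, Hk1 and Hk2 are named here after their values were seen. Pgk1, at rank 12 of all genes, had 0.073 and 0.0551 against 0.195 and 0.151. Hk1 and Hk2, the hexokinases that open the pathway, had a mean r of 0.0158 and 0.0298.

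Part of this gap moved with the level of the genes. Mif and most glycolysis genes had more UMIs in efferocytic cells, and r of sparse counts grows with the mean. When Mif and each other gene were thinned further to their lowest mean among the 4 libraries, an alternative chosen after seeing the data, the median r of the glycolysis list was 0.0791 and 0.0686 in non-efferocytic and 0.125 and 0.0843 in efferocytic libraries. At matched means Cstb was at rank 1 with a mean r of 0.123 and Gapdh at rank 4 with 0.117. The efferocytic values were then still the higher ones, by far less, and in Experiment 2 by little.

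Within clusters the likeness of Mif and glycolysis remained, at a lower level. With each gene centred on its mean in the cluster, the median r of the list was 0.031 and 0.024 in non-efferocytic and 0.118 and 0.145 in efferocytic libraries, and Gapdh was again first of all genes, with a mean r of 0.137. With macrophage-like cells alone the medians were 0.076 and 0.084 against 0.174 and 0.185. Without the cells that held a UMI of genes expected in RM1 cells (for this measure chosen after seeing the data), they were 0.050 and 0.054 against 0.215 and 0.182. That list could not show which cells held RM1 RNA, for the reason given with its library sums below.

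**Figure D4:**
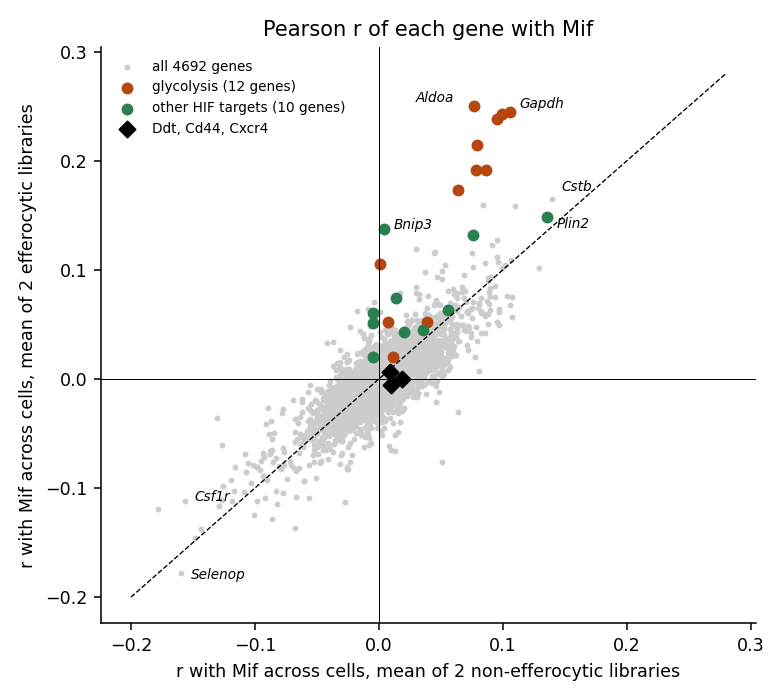
Pearson's r with Mif across thinned cells for 4692 genes, with the mean of the 2 non-efferocytic libraries on the x axis and of the 2 efferocytic libraries on the y axis; the dashed line marks equal values. Glycolysis genes led by Gapdh, with Aldoa at 0.0769 and 0.251, lie above the line, while Ddt, Cd44 and Cxcr4 lie near 0 on both axes.

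Counted directly, cells with more Mif held more glycolysis UMIs in every library. In the non-efferocytic library of Experiment 1, the summed UMIs of the list rose from 13.2 ± 0.086 (SE over cells) in the 3549 cells without Mif to 20.1 ± 1.16 in the 112 cells with 4 to 5 Mif UMIs and to 40.6 ± 4.33 in the 27 cells with 6 to 9. In the efferocytic library of the same experiment, they rose from 19.1 ± 0.234 in 1129 cells without Mif to 30.5 ± 0.556 in 817 cells with 4 to 5 and to 65.0 ± 3.30 in 60 cells with 10 or more. In Experiment 2 the means were 13.9 in cells without Mif, 22.5 at 4 to 5 and 31.3 at 6 to 9 UMIs in the non-efferocytic library. The efferocytic library had 22.6, 31.6 and 43.8 UMIs at the same steps and 68.6 in the 68 cells with 10 or more.

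At equal Mif, efferocytic cells held more glycolysis UMIs than non-efferocytic cells in every bin up to 5 Mif UMIs. In cells without any Mif UMI the means were 19.1 against 13.2 in Experiment 1 and 22.6 against 13.9 in Experiment 2. The bins of 6 to 9 UMIs, with 27 cells in each non-efferocytic library, had 41.9 UMIs in efferocytic against 40.6 in non-efferocytic cells in Experiment 1 and 43.8 against 31.3 in Experiment 2. The other HIF targets showed the same order from bin to bin, from 7.29 and 7.14 UMIs in non-efferocytic cells without Mif to 13.5 and 14.3 at 4 to 5 UMIs, and from 14.0 and 11.95 to 18.0 and 15.2 in efferocytic cells. Plin2 alone made up much of this sum. It was at a mean of 809 CPM where the list summed to 1614 and 1636 CPM in the non-efferocytic libraries. In the efferocytic ones it was at 1972 CPM, where the list summed to 3180 and 2794 CPM. UMIs of the 14 genes expected in RM1 cells also differed with Mif, from 0.168 and 0.125 per cell without Mif to 0.889 and 0.593 at 6 to 9 UMIs in non-efferocytic libraries, and from 0.159 and 0.155 to 0.245 and 0.268 in efferocytic ones, where cells with 10 or more Mif UMIs had 0.283 and 0.206. Their part in the result was not tested.

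**Figure D5:**
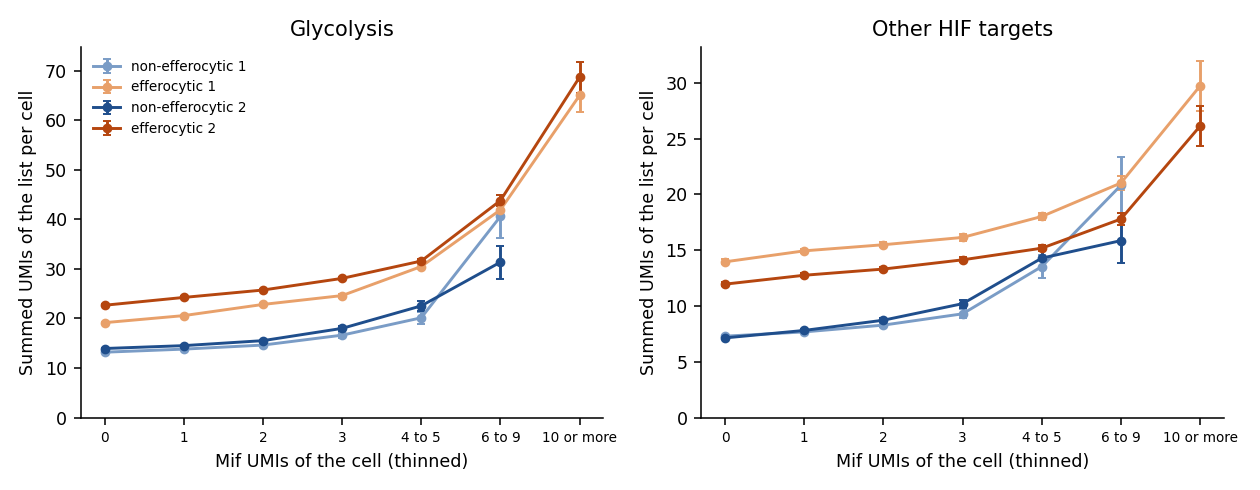
Mean summed UMIs per thinned cell of the glycolysis list and of the other HIF targets (y axes from 0) by the cell's number of Mif UMIs, 1 line per library, with the SE over cells as bars. Bins of fewer than 20 cells are left out; glycolysis reaches 65.0 and 68.6 UMIs in efferocytic cells with 10 or more Mif UMIs, from 19.1 and 22.6 in those with none.

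The median r of the other HIF targets with Mif was 0.017 in both non-efferocytic and 0.062 and 0.063 in both efferocytic libraries (10 genes). Plin2 had the highest mean r of the list at 0.142, followed by Ero1l, an oxidase of protein folding, at 0.104 and Bnip3, a mitophagy receptor, at 0.0708. Bnip3 was near 0 in the non-efferocytic libraries (0.005 and 0.0038) and stood at 0.145 and 0.130 in the efferocytic ones. Egln1, which marks HIF for degradation, had -0.0131 and 0.0044 against 0.0545 and 0.0488, and Hif1a itself stayed between -0.012 and 0.0116.

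Lists outside the HIF targets are given in the same way, as a description. The median r of 6 ATF4 targets was 0.063 and 0.078 in non-efferocytic and 0.074 and 0.060 in efferocytic libraries, with Atf4, Atf5 and Ddit3 at a mean r of 0.0828, 0.082 and 0.0733. The 26 proteasome genes had medians of 0.024 to 0.039, with 24 to 26 of them above 0 in each library and Psmb6 at a mean r of 0.107. The 15 MYC targets had medians of 0.022 to 0.047, with Ran and Nme1 at 0.0844 and 0.0819. The 85 oxidative phosphorylation genes of the nuclear genome had medians of 0.020 to 0.026, while all 12 genes of the mitochondrial genome were below 0 in each library, with medians of -0.032 and -0.062 in non-efferocytic and -0.099 and -0.072 in efferocytic libraries. The share of mt- UMIs of a cell had a Spearman rho with Mif of -0.076 to -0.131.

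Among the genes of MIF biology, r with Mif was low. Txn1 (thioredoxin, a MIF binding protein) had a mean r of 0.0569 and Spp1 (osteopontin, a CD44 ligand) 0.0733. Cd74 was below 0 in each library, with -0.0503 and -0.0601 in non-efferocytic and -0.0241 and -0.050 in efferocytic ones. Prdx1, a peroxidase that binds MIF and that is named here after its values were seen, went from 0.0485 and 0.0533 in non-efferocytic to -0.0756 and -0.0773 in efferocytic libraries, the most negative difference between groups among the 4692 genes.

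The genes most like Cd44 were Cd36, Lpl, Rnf128, BC005537 and Ccl9. Cd36, a scavenger receptor for lipids and apoptotic cells, had a mean r of 0.160 (0.115 to 0.196 over the libraries) and rose as a sum by a log2 fold change of 1.70 (adjusted edgeR p 9.4e-05). Lpl, lipoprotein lipase, had a mean r of 0.144 (0.115 to 0.172) and rose by 0.64. Ccl9, a chemokine, had a mean r of 0.114 and fell by 0.38 on the log2 scale in CPM, but was at 0.24 at UMIs per cell. Ddt was most like Rps2, Rpl19, Rpl15, Ubb and Rps18, at a mean r of 0.0936 to 0.0828, genes of the ribosome and ubiquitin with many near-identical copies in the genome. For Cxcr4 the highest mean r was 0.0774 (Socs6), too weak to be read as a pattern.

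Of the other MIF receptors, Cd74 and Cxcr2 fell as library sums. Cd74 went from 323 and 566 CPM in the non-efferocytic libraries to 27.4 and 62.5 CPM in the efferocytic ones, a log2 fold change of -3.26 with an adjusted edgeR p of 7.75e-06. The 5 monocyte markers moved in the same direction, with summed levels of 68.8 and 77.8 CPM against 25.99 and 15.8 CPM, and their part in this result was not tested. Cxcr2, a receptor of neutrophils, was at 0.721 and 0.441 CPM against 0.16 and 0.103 CPM (-2.02, adjusted p 0.00177), and the neutrophil-lineage markers moved in the same direction, whose part in this result was not tested. Ackr3 was too low to be tested, at 0 to 0.0198 CPM. Of the 4 receptors tested, 1 was called higher and 3 lower, beside 19.9% and 19% of all genes, with a median log2 fold change of -1.21 where the median of all genes was -0.02. As background for Cd74, 7 of 8 MHC class II genes tested fell and none rose, where 19% of all genes fell, with Ciita, their transactivator, at -3.77 and H2-Ab1 at -3.55.

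Of the 8 genes that bind MIF or carry it out of the cell, 3 rose and 1 fell, beside 19.9% higher and 19% lower over all genes, so that the counts are too few to read as a result about the list. Txn1 rose by a log2 fold change of 0.49, Uso1 (p115, a Golgi protein that binds MIF for secretion) by 0.44 and Cops5 (JAB1, a MIF-binding subunit of the COP9 signalosome) by 0.36. Abca1, a lipid transporter linked to MIF export, fell by 0.39 in CPM but was at 0.23 at UMIs per cell. Of 14 signalling genes 1 rose and 3 fell, a smaller share than the 38.9% of all genes. Dusp1, a MAP kinase phosphatase, was at -1.22, Nfkbia at -0.65, Nfkb1 at -0.33 and Map2k2 at 0.29. At UMIs per cell Nfkbia was at -0.03 and Nfkb1 at 0.29, neither past the test. Dusp1 was uneven between experiments, with 316 against 69.9 CPM in Experiment 1 and 30.6 against 22.4 CPM in Experiment 2.

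Around CD44, 4 of 9 genes tested rose and 1 fell, where 38.9% of all genes were called. Spp1, which encodes the CD44 ligand osteopontin, went from 918 and 767 CPM to 2719 and 2166 CPM (log2 fold change 1.64, adjusted edgeR p 0.00015). The hyaluronidases Hyal1 and Hyal2 rose by 1.94 and 0.99. The hyaluronan synthase Has2 fell by 1.89 on the log2 scale, on levels of at most 0.543 CPM.

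Around CXCR4, 1 of 12 genes rose and 7 fell, where 19% of all genes were called lower. The count of 7 did not hold at UMIs per cell, where only Cxcl12 of these genes was still called lower. The ligand Cxcl12 went from 10.2 and 9.90 CPM to 1.62 and 3.52 CPM (-1.93, adjusted edgeR p 0.000646), and the fibroblast markers, among which it is counted, moved in the same direction, whose part in this result was not tested. The desensitization genes Rgs2, Grk3 and Arrb2 were at -0.87, -0.74 and -0.39. At UMIs per cell they were at -0.26, -0.12 and 0.23, where none passed the test and Arrb2 turned direction.

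Among 12 genes of Mif and Cxcr4 transcription, 4 rose and 1 fell, a share near the 38.9% of all genes. Egln3, a HIF prolyl hydroxylase and itself a HIF target, rose by a log2 fold change of 2.30, Epas1, which encodes HIF-2α, by 1.66 and Uhrf1, a chromatin protein, by 1.01. Klf2, a transcription factor, was at -0.53, and at 0.09 at UMIs per cell. Of the cytokine and glucose transporter genes that the study followed after adding MIF, 2 of 7 tested rose and 3 fell, with Il1b at -3.53, Cxcl1 at -2.84, Ccl5 at -1.89 and Pf4 at 1.53 on the log2 scale. That list was taken from the study. The monocyte and neutrophil-lineage markers were lower in the efferocytic libraries as well, with the values given above, and their part in these differences was not tested.

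The same lists were counted as library sums, where 38.9% of all genes were called and the median log2 fold change was -0.02. Of 21 glycolysis genes 14 rose and 1 fell (median log2 fold change 0.81), led by Ldha (1.22), Eno1 (1.17), Pgam1 (1.16) and Tpi1 (1.13). Of 22 other HIF targets tested 15 rose and 5 fell (median 0.47), led by Ak4 (2.48) and Ankrd37 (2.31). Of 23 MYC targets 18 rose and 1 fell (0.55), led by Nme1 (1.22) and Srm (1.20), and of 26 proteasome genes 19 rose and none fell (0.30). Of 18 ATF4 targets 6 rose and 4 fell (0.18), of 18 G1/S genes 12 rose and none fell (0.53), of 20 G2/M genes 4 rose and 3 fell (0.03), and of 19 interferon response genes 2 rose and 9 fell (-0.48). At UMIs per cell, where 92.2% of all calls were higher, these counts did not all hold. The 4 ATF4 targets that fell were then not called. Bst2 (0.86) and Rtp4 (0.80), interferon response genes named here after their values were seen, were called higher. The summed interferon list rose in Experiment 1 (1129 to 1211 CPM) and fell in Experiment 2 (757 to 610 CPM). The 14 genes expected in RM1 cells had summed levels of 37.0 and 40.1 CPM without and 39.5 and 49.6 CPM with efferocytosis, with 1 of 11 tested higher and 2 lower, and in cells without a UMI of that list the log2 fold change of Mif was 1.52.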

How the data were processed

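The authors sequenced 10x Genomics 3′ libraries, aligned them to mm10 using Cell Ranger and STAR, and deposited unfiltered, unnormalized counts of UMIs for each gene in each barcode. The methods name Cell Ranger 3.0.0 and Seurat 3.1, while the file headers name 3.0.0 for Experiment 1 and 3.1.0 for Experiment 2. The deposited counts of cells passing the filter were summed per library and tested with edgeR 4.0.16 (TMM, filterByExpr, quasi-likelihood) under R 4.3.3. The experiment was a block in the model because the replicate number in the labels marks a shared experiment (correlation of deviations 0.786 over 7097 genes). Whether the experiments used separate mice is not given in the sources used here, so p-values cover the spread between these libraries. With 2 libraries a group an exact permutation test cannot go below 0.33, so single shares carry intervals (95%, Clopper-Pearson) and no test. On simulated counts the same fit called 48 of 50 genes changed 2-fold, 30 of 50 changed 1.5-fold, and 9 unchanged genes over 13789 tested. The simulation gave all genes the same dispersion, had no difference between experiments and changed few genes. These counts therefore describe the simulated setting and not the error rates in the data.

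Cells were thinned to 5000 UMIs without replacement. Clusters were Leiden clusters (leidenalg 0.10.2, 0.5 as resolution; 5000 genes reduced to 20 components with scikit-learn 1.9.0), named from markers, and likely doublets (548 and 1439 non-efferocytic, 359 and 566 efferocytic cells) were kept. Macrophage-like cells alone means, of the clusters named macrophage-like, those whose leading genes held no more markers of another type than of macrophages. The members and the gene lists were chosen with earlier results of these data known. Named are the members, all MIF family and receptor genes, per list at most 4 called genes of largest change and 3 of highest r with Mif, the genes most like each member, and the leading genes of the clusters described. Promoters are from RefSeq (GRCm38.p6), where all 4 members matched. The alternatives were DESeq2 1.42.0, no block, other scalings, filters, cell sets, depths and each library left out.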

Additional observations from a re-analysis of the deposited data

How the results depend on the processing

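Mif was higher in efferocytic cells under every setting tried, with log2 fold changes of 1.37 to 2.10 over 15 alternatives and adjusted p-values of up to 0.0192. With each library left out in turn, and no block, it was 1.47 to 1.51. Such a fit holds 1 library in a group, so its spread comes from the other group alone and no call is read from it. Cd44 was 0.23 to 0.54, Cxcr4 -0.61 to -0.18 and Ddt -0.17 to -0.02 in these fits. Cd44 lost its call without the replicate block (0.39), with a mean of at least 10 CPM (0.28), in macrophage-like cells (0.23) and with free RNA removed (0.36). Cxcr4 lost its call without the block (-0.38), in macrophage-like cells (-0.43) and with free RNA removed (-0.43). At UMIs per cell Ddt (0.52) and Cxcr4 (0.22) turned direction, neither past the threshold. The causes were not tested. Mif was called higher with and without the block, and Ddt was called in neither fit.

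The number of genes called, 5397, was 2358 without the block, 3404 with DESeq2, 3026 with at least 10 CPM, 2664 in macrophage-like cells, 2339 with free RNA removed, and 0 to 2933 with a library left out (0 without the non-efferocytic library of Experiment 2, where 3494 had an unadjusted p under 0.05). The gap in the share of cells with Mif, 31.5 percentage points, was 28.1 at 2000 UMIs, 19.9 at 10000, 26.7 not thinned and 30.04 in macrophage-like cells. Not thinned, the gaps of Ddt (11.97 points) and Cxcr4 (5.93 points) turned direction, with the efferocytic cells at the greater depth. The median r of the glycolysis list was 0.191 in efferocytic and 0.0748 in non-efferocytic libraries on average. It was 0.265 and 0.121 at 10000 UMIs, 0.322 and 0.136 not thinned, and 0.132 and 0.0274 centred within clusters. In efferocytic libraries it was 0.104 at matched means. In non-efferocytic ones it was 0.0565 as Spearman's rho and 0.0521 in cells without a UMI of the genes expected in RM1 cells. The ratio of co-detection to independence was 0.939 to 1.05 under the other settings. Having 2 libraries a group and sparse counts per cell limits all of these values.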
